A study of Mus musculus with 2 samples.

Results

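Cytochrome c oxidase is the last enzyme of the mitochondrial respiratory chain, where it passes electrons from cytochrome c to oxygen and pumps protons. Its catalytic core is made of subunits encoded by mitochondrial DNA, and the core is surrounded by small subunits encoded in the nucleus. Several of the nuclear subunits exist as isoforms from separate genes. A heart or muscle type of subunits VIa, VIIa and VIII is known from heart and skeletal muscle, and a ubiquitous or liver type from most other tissues. The 10 genes described here are the isoform genes of these positions and of subunits IV and VIb, together with Cox7a2l, a relative of the VIIa subunits. They were picked by gene symbol from the 55536 genes listed, by a rule that uses no measured value, though earlier results of these data were known. Cox6a2, Cox7a1 and Cox8b are the heart-type genes, with Cox6a1, Cox7a2 and Cox8a as their ubiquitous partners. Cox4i1 is the ubiquitous subunit IV and Cox4i2 its isoform known from lung and from hypoxia. Cox6b1 is the ubiquitous subunit VIb.

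The hearts came from male mice of the hybrid strain B6CASTF1/J, a first-generation cross, at 36 days of age. Total RNA was sequenced after removal of ribosomal RNA, with 300 ng of input and ERCC spike-in RNA in each library. The samples form 1 group of 2 biological replicates without a treatment or a control, so the comparisons are between genes within the heart. Both replicates carry the same donor entry, and the sources used here do not say whether 1 animal gave both, so their spread may be partly technical. Replicates 1 and 2 hold 41846508 and 42481559 expected counts. Each gene was quantified by the authors in a first quantification, with expected counts and TPM per gene, and in a second, with estimated counts and TPM per transcript that were summed per gene. TPM is a level per transcript length, scaled to the same total in each library. Unless the second is named, values are from the first.

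In both hearts the heart-type gene was above its ubiquitous partner at each of the 3 positions that have such a pair. Cox6a2 was 7.27 and 9.17 times the TPM of Cox6a1, Cox8b was 5.85 and 6.5 times that of Cox8a, and Cox7a1 was 2.79 and 3 times that of Cox7a2. Summed over the 3 positions, the heart-type genes reached 2979 and 3067 TPM and their partners 675 and 642.6 TPM. At position IV the order was the other way, with Cox4i1 at 299 and 358 times the TPM of Cox4i2. No p-value is given for these differences, since the smallest that an exact sign permutation with 2 hearts allows is 0.5. The size of each difference is set against the spread of the hearts.

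The partners of a pair are related proteins, and the coding sequences of the VIIa and VIII pairs are shown because the comparison rests on telling their reads apart. They are spliced coding sequences of the named transcripts in GENCODE M21 on mm10, 5′ to 3′, and capitals mark the longest run of bases that both partners share. Cox7a1-201 is coded on the + strand within chr7:30184231-30185967, Cox7a2-201 on the - strand within chr9:79755547-79759657, Cox8b-201 on the - strand within chr7:140898988-140900342 and Cox8a-201 on the - strand within chr19:7215389-7217512.
Cox7a1: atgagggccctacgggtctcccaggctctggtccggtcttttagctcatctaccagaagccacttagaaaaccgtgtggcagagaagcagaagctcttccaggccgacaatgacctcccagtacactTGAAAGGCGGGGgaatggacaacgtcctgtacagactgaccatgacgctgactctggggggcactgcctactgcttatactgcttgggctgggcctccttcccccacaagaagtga
Cox7a2: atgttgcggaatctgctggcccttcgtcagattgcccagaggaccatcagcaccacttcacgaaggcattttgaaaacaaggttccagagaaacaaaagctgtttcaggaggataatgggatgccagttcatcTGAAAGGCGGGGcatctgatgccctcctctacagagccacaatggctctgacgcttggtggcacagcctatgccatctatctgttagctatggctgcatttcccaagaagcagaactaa
Cox8b: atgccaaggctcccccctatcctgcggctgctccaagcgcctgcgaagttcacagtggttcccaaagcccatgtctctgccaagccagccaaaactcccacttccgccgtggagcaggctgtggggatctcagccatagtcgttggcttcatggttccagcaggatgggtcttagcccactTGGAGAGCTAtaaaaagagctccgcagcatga
Cox8a: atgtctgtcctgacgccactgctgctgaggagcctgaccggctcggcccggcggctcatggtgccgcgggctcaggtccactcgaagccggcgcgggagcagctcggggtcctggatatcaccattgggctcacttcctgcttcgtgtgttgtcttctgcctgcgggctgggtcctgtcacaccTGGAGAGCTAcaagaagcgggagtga
Cox7a1 and Cox7a2 are identical at 154 of 234 aligned bases, or 65.8%, and their longest shared run is 12 bases. Cox8b and Cox8a are identical at 117 of 201 aligned bases, or 58.2%, with a longest shared run of 10 bases. The same measure is 66.6% for Cox6a2 and Cox6a1, with a run of 12 bases, and 69.8% for Cox4i2 and Cox4i1, with a run of 14 bases. Over all annotated transcripts of the 10 genes, no stretch of 31 bases occurs in 2 of them.

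Other genes of the genome do share such stretches with some members. For Cox7a2l, 244 stretches of 31 bases, 16.6% of its own, also occur in the processed pseudogene Gm6969 on chromosome 12. In the first quantification 717 and 740 expected counts fell on Gm6969, and in the second 132 and 144 estimated counts, so the level of Cox7a2l depends on how such reads were divided. Cox6a1 shares 129 stretches, 18.5% of its own, with a transcribed processed pseudogene on chromosome 19, which held 0 expected counts in both hearts and 16 and 17 estimated counts in the second quantification. The pseudogenes that share stretches with Cox6b1 and Cox7a2 held 0 expected counts in both hearts. Cox6a2 lies inside Itgad on the opposite strand, and Itgad held 2 and 6 expected counts. Cox4i1 overlaps Emc8 on the opposite strand, which held 620 and 586 expected counts, and the gene Gm20388 on its own strand, which held 417 and 234. Beside the 34711 and 36171 expected counts of Cox4i1, these are small.

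The genes are spread over 7 chromosomes, with 4 of the 10 on chromosome 7, where 9.22% of nuclear protein-coding genes lie. All positions are those of GENCODE M21 on mm10. Cox7a1 (chr7:30184144-30186078, + strand) and Cox6b1 (chr7:30616861-30626151, - strand) are 430783 bases apart. Cox6a2 (chr7:128205435-128206387, - strand) and Cox8b (chr7:140898945-140900446, - strand) lie on the same chromosome. Their partners are elsewhere, Cox6a1 at chr5:115345642-115348981, Cox7a2 at chr9:79755361-79759878 and Cox8a at chr19:7215153-7217616, each on the - strand. Cox4i1 lies at chr8:120668222-120674207 and Cox4i2 at chr2:152754173-152765037, both on the + strand, and Cox7a2l at chr17:83501918-83517330 on the - strand.

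**Figure D1:**
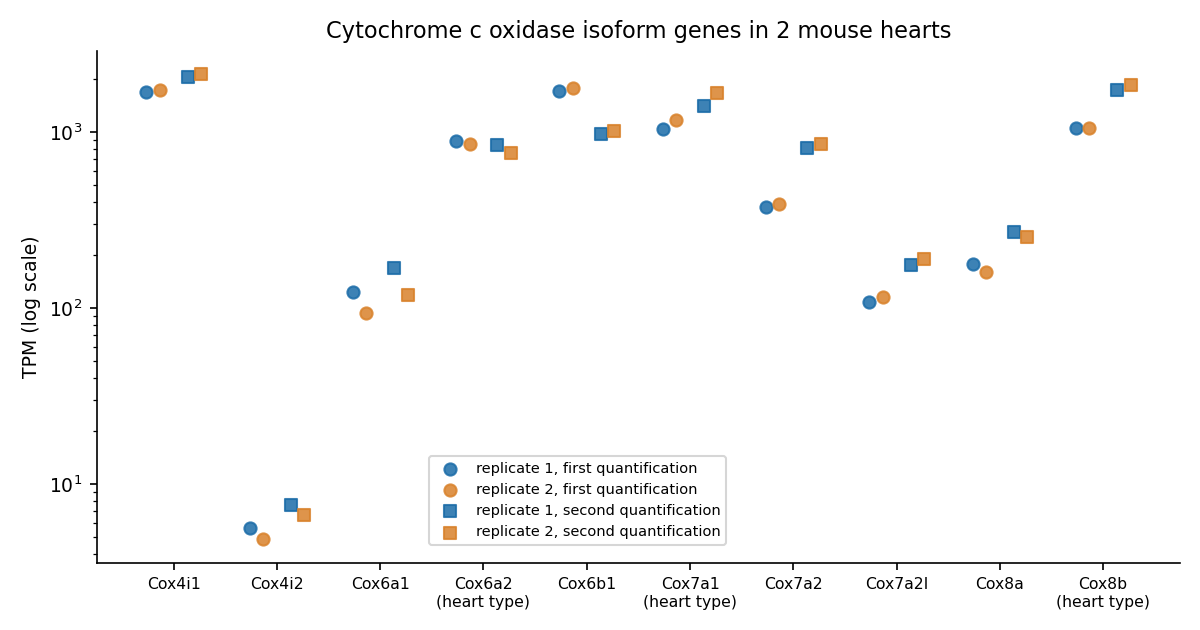
TPM (log scale) of the 10 isoform genes in each heart, circles for the first and squares for the second quantification. Cox4i2 is the lowest, and the heart-type genes Cox6a2, Cox7a1 and Cox8b lie above their partners Cox6a1, Cox7a2 and Cox8a in both hearts and both quantifications.

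Every member was detected at 1 TPM or more in both hearts. Together they made up 1.9% and 1.93% of the TPM of the 21938 nuclear protein-coding genes. Cox6b1 was the highest, at 1715 TPM in replicate 1 and 1766 TPM in replicate 2, which ranks it 18th of those genes by mean TPM. Only 58.5% and 59.5% of its TPM fell on protein-coding transcripts, against 99.7% and 99.9% in the second quantification. Cox4i1 followed at 1684 and 1738 TPM, and the ranges of these genes overlap, so their order is within the spread of the hearts. Cox7a1 at 1041 and 1164 TPM and Cox8b at 1046 and 1048 TPM overlap as well. Cox6a2 lay below them without overlap, at 891.5 and 855.5 TPM.

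The ubiquitous partners stood lower. Cox7a2 had 373.6 and 388.2 TPM, and Cox8a 178.8 and 161.1 TPM. Cox7a2l at 108.1 and 114.9 TPM and Cox6a1 at 122.6 and 93.25 TPM overlap. Cox4i2 was the lowest member, at 5.63 and 4.85 TPM from 119 and 103 expected counts, and ranks 7253rd. The ubiquitous genes are thus found at both ends, with Cox6b1 and Cox4i1 at the top and Cox6a1 and Cox8a far below.

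The order depends on the quantification in places. By the second, Cox4i1 led with 2084 ± 65.4 TPM (SD, n = 2), followed by Cox8b with 1777 ± 83.5 TPM and Cox7a1 with 1535 ± 187 TPM. Cox6b1, first in the other order, stood at 990 ± 25.1 TPM, 0.569 times its first value. Cox7a2 moved the other way and stood at 831 ± 32.1 TPM, 2.18 times its first value and above the 797 ± 61.2 TPM of Cox6a2 by mean, with overlapping ranges. Across the 542 nuclear protein-coding genes at 100 TPM or more in the first quantification, the second gave a median of 1.23 times the first, with 10th and 90th percentiles of 0.957 and 1.77. Cox6b1, Cox6a2 at 0.913 times and Cox7a2 lie outside that range, and the other members fall inside it, from 1.22 times for Cox4i1 to 1.7 times for Cox8b.

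Subunit VIa binds adenine nucleotides and sits at the interface of the enzyme dimer. Its heart-type gene Cox6a2 took 87.9% of the pair's TPM in replicate 1 and 90.2% in replicate 2, or 89.0 ± 1.60% (SD, n = 2). The share was lower but still far above 50% by the TPM of the second quantification, at 83.2% and 86.4%. The pair is formed by 17436 and 16799 expected counts of Cox6a2 against 1950 and 1491 of Cox6a1. The higher share in replicate 2 goes with the lower level of Cox6a1 there.

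Subunit VIII is a small membrane subunit, and its heart-type gene Cox8b is active in the mouse but a pseudogene in humans. Cox8b took 85.4% and 86.7% of the pair's TPM, or 86.0 ± 0.899% (SD, n = 2). The second quantification gave 86.4% and 87.8%. Not divided by length, its share of the expected counts was 77.2% and 79.0%. Cox8b-201 is 360 bases long and Cox8a-201 550. Of the 3 heart-type shares, this one moved least between the TPM of both quantifications.

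Subunit VIIa lies near the contact with the cytochrome bc1 complex. Its heart-type gene Cox7a1 took 73.6% and 75.0% of the pair's TPM, or 74.3 ± 0.987% (SD, n = 2), which is the lowest of the 3 heart-type shares in both hearts. By the TPM of the second quantification it was 63.4% and 66.1%, and it again lay below the shares of Cox6a2 and Cox8b. Estimated counts of the second quantification, not divided by length, put Cox7a1 under 50%, at 45.6% and 48.2%. So Cox7a1 exceeded Cox7a2 per transcript length in both quantifications, and in counts only in the first, with 10391 and 11677 against 6488 and 6600 expected counts.

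Cox7a2l encodes a protein that joins cytochrome c oxidase to the cytochrome bc1 complex in respiratory supercomplexes, and C57BL/6 mice carry a shortened form. With Cox7a2l counted on the side of Cox7a2, Cox7a1 held 68.4% and 69.8% of the TPM, and 58.8% and 61.5% in the second quantification. Its coding sequence is identical to that of Cox7a2 at 68.8% and to that of Cox7a1 at 64.4% of aligned bases.

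Subunit IV carries a regulatory site for adenine nucleotides. Cox4i2 made up 0.333% and 0.278% of the pair's TPM, or 0.306 ± 0.0387% (SD, n = 2), and the share by the second quantification was 0.370% and 0.312%. Cox4i2 is known outside lung from pericytes and smooth muscle of vessels. All 6 pericyte markers were at 1 TPM or more in both hearts, with a summed level of 240.8 and 255.1 TPM, led by Rgs5 at 121.7 and 122.5 TPM, and Kcnj8 at 8.51 and 11.57 TPM differed most between hearts. All 5 smooth muscle markers passed that level too, summing to 123.2 and 120 TPM, with Acta2 at 52.84 and 54.42 TPM and Myocd at 30.51 and 25.6 TPM. Whether the listed genes, Myocd included, come only from these cells in a whole heart was not tested. The sums are thus not a measure of how many such cells there were. The 4 lung epithelium markers summed to 0.05 and 0.04 TPM, with Sftpc and Scgb1a1 at 0 counts and Sftpa1 at 3 and 1. The part of other cells in the level of Cox4i2 was not tested, and in a whole heart fewer cells of a type and less RNA per cell cannot be told apart.

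**Figure D2:**
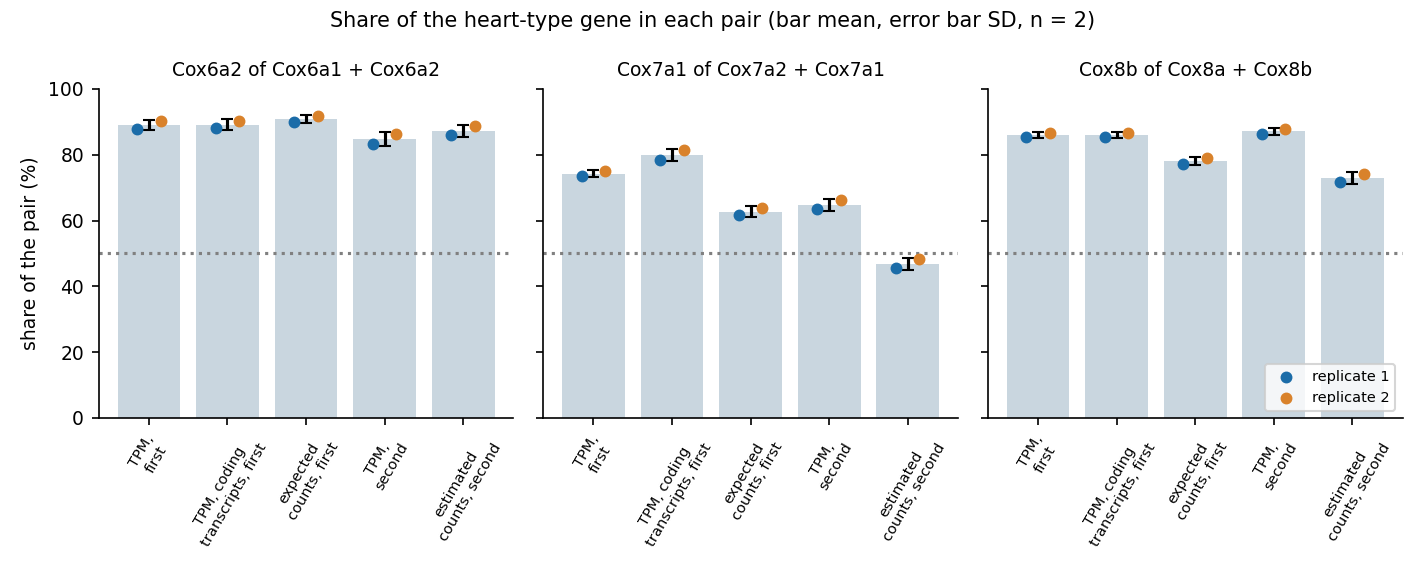
Share of the heart-type gene in its pair in percent, by unit and quantification. Bars are means, error bars SD and points the 2 hearts, and the dotted line is 50%. Only the estimated counts of the second quantification put a share, that of Cox7a1, under the line.

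The enzyme holds each nuclear subunit in equal number, so the isoforms were also summed per position and set beside the subunits that have 1 main gene. These sums include non-coding transcripts of the genes. Position VIb stood at 1742 ± 36 TPM (SD, n = 2), IV at 1716 ± 37.1, VIIa at 1483 ± 97.2, VIII at 1217 ± 11.1 and VIa at 981.5 ± 46.2 TPM. The subunits compared stood at or below the level of position VIII, with Ndufa4 at 1156 ± 62.4, Cox6c at 987 ± 64.1, Cox5a at 962 ± 34.2, Cox5b at 816 ± 24.4, Cox7b at 604 ± 23.1 and Cox7c at 593 ± 16.8 TPM. Over these 11 positions the highest was 2.94 times the lowest. With the ubiquitous gene alone, positions VIa and VIII would stand at the 108 ± 20.8 TPM of Cox6a1 and the 170 ± 12.5 TPM of Cox8a, below every other position. Position VIIa would stand at the 381 ± 10.3 TPM of Cox7a2, also below each of the subunits compared.

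The second quantification kept the positions within a similar range, 2.51-fold, in another order. VIIa was then highest with 2366 ± 219 TPM and VIa lowest with 941 ± 97.1 TPM. Cox7a2 alone, at 831 ± 32.1 TPM, was then closer to the lowest position than in the first quantification. Testis isoforms added almost nothing. Cox6b2 had 0.92 and 0.85 TPM, and Cox7b2 and Cox8c had 0 expected counts in both hearts. The limit of 3 counts used for such zeros, a chosen floor and not a strict maximum, is 0.0717 and 0.0706 CPM. In the second quantification Cox7b2 had 0 and 1 estimated counts. Of the mitochondrial subunits, mt-Co1 at 34642.0 and 37120.4 TPM and mt-Co3 at 17193.7 and 19829.1 TPM were of another order of size. For mt-Co2 the quantifications differed several-fold, with 592.3 and 619.6 TPM in the first and 3651 and 3742 TPM in the second. Cycs, the somatic cytochrome c that feeds the enzyme, differed likewise, with 60.13 and 65.03 against 736 and 758 TPM, while the testis form Cyct had 2 and 1 expected counts.

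**Figure D3:**
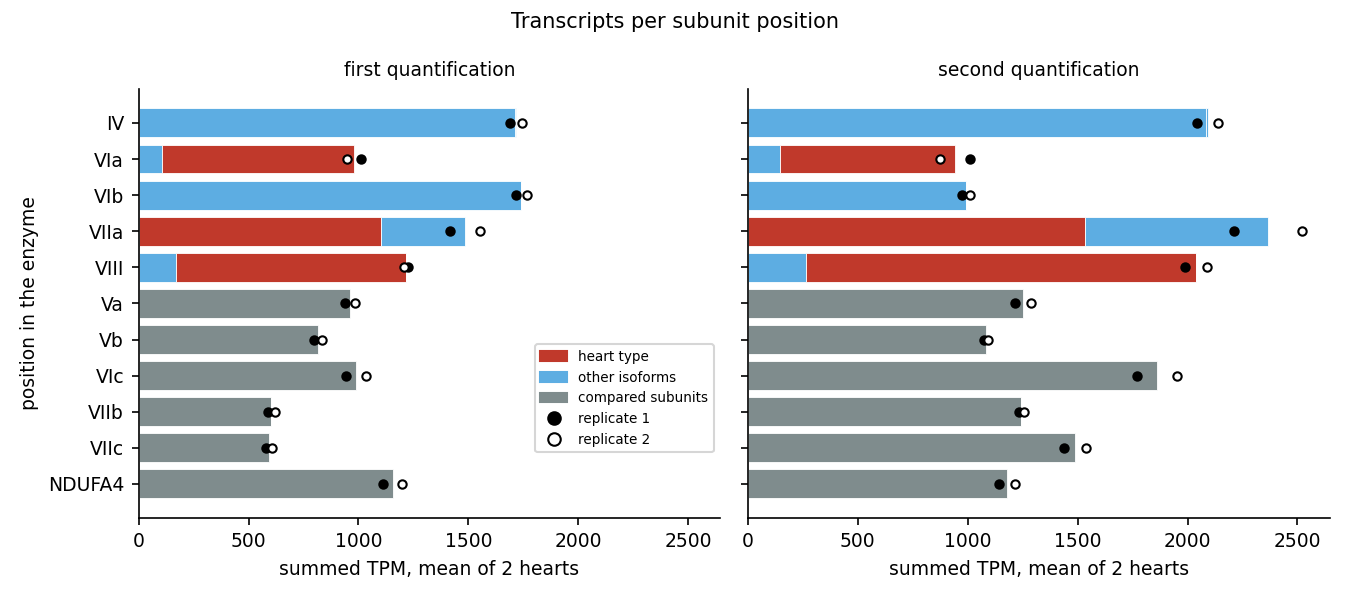
Summed TPM per subunit position in the first (left) and second (right) quantification. Bars are means of 2 hearts split by gene, filled and open points the hearts, and red marks the heart-type genes. Red makes up most of VIa, VIIa and VIII.

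Between the hearts no member differed by 2-fold. The ratio used TMM-scaled expected counts, and 12541 genes reached the required mean of 50 expected counts. Of these, 161 (1.28%) differed at least 2-fold, against 0 of the 10 members. Among the 161, 126 were higher in replicate 1 and 35 in replicate 2. The median log2 ratio of replicate 2 over replicate 1 was -0.03 over the members and 0.00 over all genes tested. By TMM scaling 4 members were higher in replicate 2 and 6 in replicate 1, and Cox7a2 and Cox8b change sides when spike-in totals set the scale.

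Cox6a1 differed most. Its 1950 expected counts in replicate 1 and 1491 in replicate 2 gave a log2 ratio of -0.43 (95% counting interval from -0.53 to -0.33), or 1.35-fold lower in replicate 2. Of all genes tested, 8.09% lay as far from 0 or farther. The second quantification gave -0.56. Cox6a2 was also lower in replicate 2, at a log2 ratio of -0.10 (-0.13 to -0.07), and -0.20 in the second.

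Cox8a was lower in replicate 2 by a log2 ratio of -0.19 (-0.27 to -0.11), and its partner Cox8b was near 0 at -0.04 (-0.08 to 0.01). Cox7a1 was the member most raised in replicate 2, at 0.12 (0.09 to 0.16), with Cox7a2 at -0.02 (-0.07 to 0.03). Cox4i2 had a log2 ratio of -0.25, but its interval of -0.65 to 0.14 is wide at about 100 counts. The remaining members, Cox4i1, Cox6b1 and Cox7a2l, lay between 0.01 and 0.05. The intervals cover counting error only, so an interval without 0 does not show a difference between hearts beyond preparation.

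**Figure D4:**
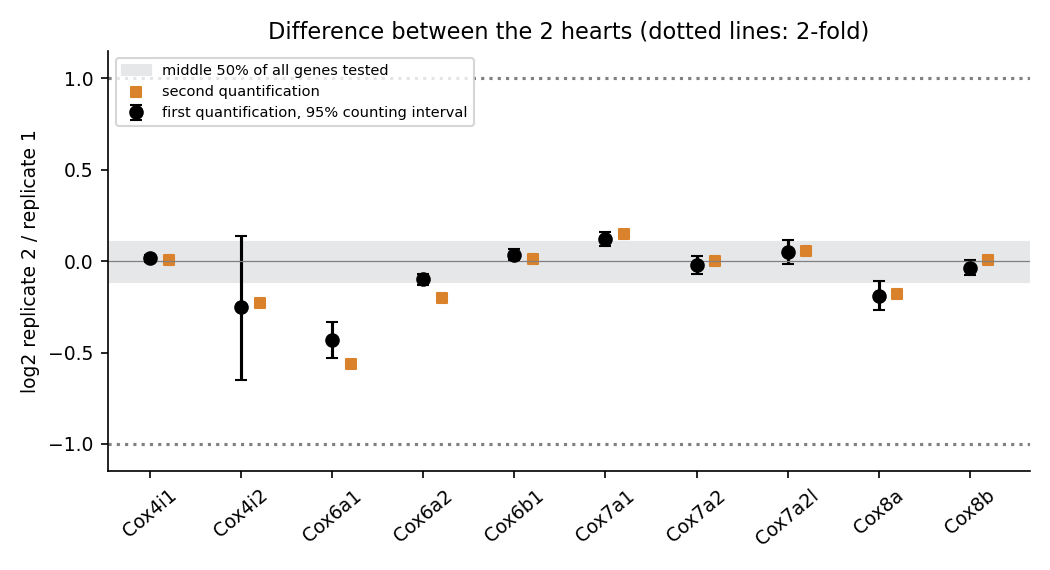
Log2 ratio of replicate 2 over replicate 1 for each isoform gene, with exact 95% counting intervals (black) and the value from the second quantification (orange squares). The grey band holds the middle 50% of all genes tested. Only the interval of Cox6a1 lies wholly below the band.

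Fat and blood markers moved between the hearts, and Cox7a1 and Cox8b are also known from brown fat, so the markers are given here. Of 5 brown adipocyte markers, Ucp1, the uncoupling protein, had 1635 expected counts in replicate 1 and 46 in replicate 2, Cidea 1183 and 630, and Elovl3 48 and 0. The list summed to 69 and 19.55 TPM. The adipocyte list summed to 412.1 and 352 TPM, mostly from Fabp4 at 382 and 348.6 TPM, while Plin1 had 648 and 44 counts. The sum therefore hides the rest of that list. Of its 4 genes with a mean of 50 counts, 3 were at least 2-fold higher in replicate 1, against 126 of all 12541 genes tested. The median log2 ratio of the 4 was -3.07. Beside these, Cox7a1 had 1041 and 1164 TPM and Cox8b 1046 and 1048 TPM. Red cell markers were also higher in replicate 1, by 2-fold or more in 4 of 4, Hbb-bs with 7190 and 3384 TPM and Slc4a1 with 283 and 88 counts. The part of fat and blood cells in the level of any member, Cox7a1 and Cox8b included, was not tested. The 6 cardiomyocyte markers were high in both hearts, Myh6 with 7641 and 8514 TPM, and of 8 skeletal muscle markers only Tnni2, at 1.1 and 1.26 TPM, reached 1 TPM in both hearts, with Myh4 at 0 and 5 counts.

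The genes that build or assist the enzyme showed no 2-fold difference either. Across all genes tested 1.28% passed, so counts of 0 in lists this small are near that share. Of those genes 6286 were higher in replicate 2 and 6255 in replicate 1. Of the 6 other nuclear subunits, 0 passed, 5 were higher in replicate 2, and the median log2 ratio was 0.03. Of 26 assembly and translation factors, 0 passed in either direction and the median was -0.01, with all 26 at 1 TPM or more in both hearts by the first quantification. The highest were the copper chaperone Cox17 at 112.6 and 115.6 TPM, Cox14 at 83.93 and 82.08 TPM and Higd1a at 73.78 and 80.32 TPM. The lowest were Pet117 at 3.87 and 3.37 TPM, which had only 0.298 and 0.0337 TPM in the second quantification, the membrane insertase Cox18 at 4.28 TPM in both hearts and Coa4 at 6.26 and 6.3 TPM. Summed, the 26 factors had 825.7 and 847.5 TPM, less than Cox6a2 alone in either heart by the first quantification.

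Within the genes, the quantifications chose different transcripts. Cox6a2-201 and Cox8b-201 are the only annotated transcripts of their genes, so nothing divides there. The main transcript was the same in both hearts and both quantifications for 5 of 10 members, Cox6a2, Cox7a1, Cox7a2l, Cox8a and Cox8b. All 3 heart-type genes are among these 5, but for Cox6a2 and Cox8b this was fixed by their single annotated transcript. Only Cox7a1, with 2 annotated transcripts, could have differed.

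For the other 5, the choice changed. Cox6a1-201, the coding transcript, held 98.9% and 97.7% of Cox6a1 in the first quantification, while the retained-intron transcript Cox6a1-202 held 88.5% and 89.2% in the second. Cox6b1-204 and the retained-intron transcript Cox6b1-202 held 53.6% and 41.3% of Cox6b1 in replicate 1 of the first, and Cox6b1-201, which is longer at 618 bases, held 90.9% in the second. Cox4i1-201 with 88.0% and 88.7% gave way to Cox4i1-205 with 92.9% and 88.95%, both coding. Cox4i2-201 likewise gave way to Cox4i2-202. In Cox7a2 the processed transcript Cox7a2-203 held 23.6% and 30.8% in the first and 49.5% and 52.2% in the second.

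**Figure D5:**
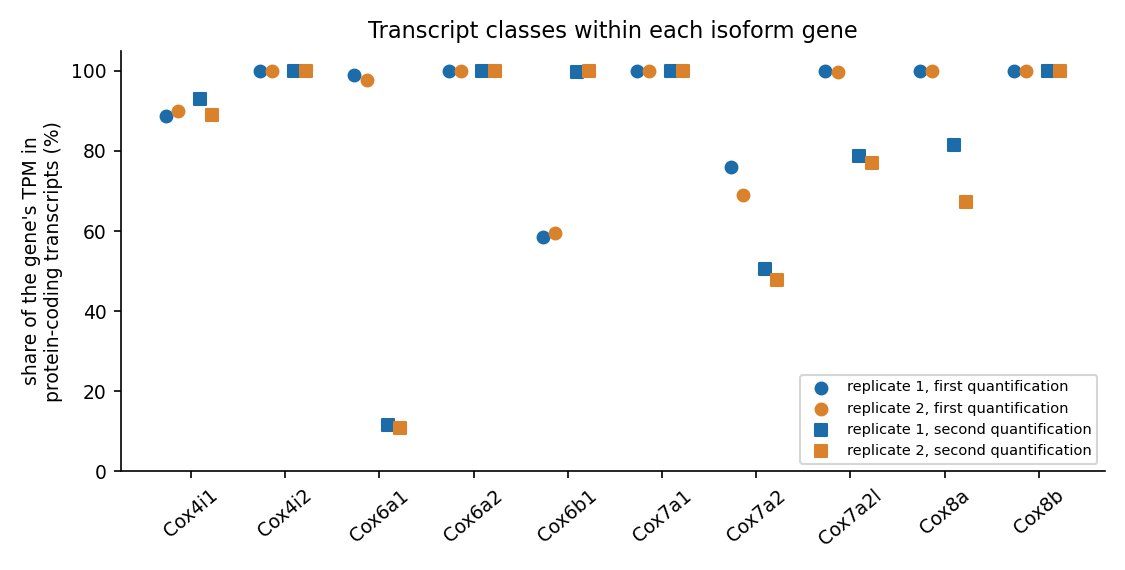
Share of each gene's TPM in transcripts annotated as protein-coding, in percent, for both hearts and both quantifications. Cox6a2, Cox7a1, Cox8b and Cox4i2 have only protein-coding transcripts annotated, so the annotation fixes them at 100. Cox6a1 falls from 98.3 to 11.2 on average from the first to the second.

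Non-coding transcripts bear on the pairs in different ways. With coding transcripts only, taken from the first quantification, the share of Cox7a1 rose to 78.6% and 81.3%, since Cox7a2 lost its processed transcript. The shares of Cox6a2 and Cox8b moved there by less than their SD. In the second quantification coding transcripts held on average 11.2% of Cox6a1 and 74.4% of Cox8a, and shares from coding transcripts were not computed. The counts assigned also differed. Summed over both hearts, the second quantification assigned 0.567 of the first's counts to Cox6a2, 0.562 to Cox7a1, 0.568 to Cox8b and 0.573 to Cox6b1. The median over the genes tested was 1.06, with a 10th percentile of 0.932. Cox7a2 at 1.07 lay near that median, and Cox6a1 at 0.831 and Cox8a at 0.75 lay between.

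The division by length differs too. The first quantification takes 99 bases off each transcript length, and the second removes more, close to its mean fragment of 326 and 328 bases where a transcript is long enough. Cox8b-201 thus has an effective length of 261 bases in the first and 87.3 and 84.3 in the second, and Cox7a1-201 has 294 against 104 and 101. For Cox6a2-201 the lengths were 581 against 355 and 353 bases. Of the main transcripts of the first quantification, the 3 shortest, Cox6b1-204, Cox8b-201 and Cox7a1-201, lose the largest part of their length in the second. For Cox6b1 the transcript changed as well, with Cox6b1-204 at only 8.84% and 8.17% in the second quantification.

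The promoters of the VIIa and VIII pairs are shown because the abundant and the scarce partner of each pair differ there in CG content. RefSeq promoters on GRCm38.p6, the assembly of mm10, matched 7 of the 10 members by symbol. The stretches run 5′ to 3′ on the gene's strand up to the base before the GENCODE start of the gene, and capitals mark each CG. The GENCODE start lies before the RefSeq start for Cox7a1 and Cox7a2, so 223 and 225 bases are shown for these and 250 for Cox8b and Cox8a. They are chr7:30183921.0-30184143.0 (+) for Cox7a1, chr9:79759879.0-79760103.0 (-) for Cox7a2, chr7:140900447.0-140900696.0 (-) for Cox8b and chr19:7217617.0-7217866.0 (-) for Cox8a.
Cox7a1: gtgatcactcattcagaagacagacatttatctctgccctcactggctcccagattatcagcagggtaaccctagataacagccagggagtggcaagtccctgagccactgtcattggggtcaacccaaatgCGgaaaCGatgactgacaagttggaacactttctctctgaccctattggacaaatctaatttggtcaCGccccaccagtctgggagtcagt
Cox7a2: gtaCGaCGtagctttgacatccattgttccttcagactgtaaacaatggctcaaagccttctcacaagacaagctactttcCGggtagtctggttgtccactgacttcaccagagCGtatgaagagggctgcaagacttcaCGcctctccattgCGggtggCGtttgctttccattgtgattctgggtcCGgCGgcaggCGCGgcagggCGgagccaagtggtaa
Cox8b: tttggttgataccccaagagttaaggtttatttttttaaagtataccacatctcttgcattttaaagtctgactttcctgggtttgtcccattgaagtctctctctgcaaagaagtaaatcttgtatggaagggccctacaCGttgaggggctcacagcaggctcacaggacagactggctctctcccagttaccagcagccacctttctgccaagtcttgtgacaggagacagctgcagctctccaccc
Cox8a: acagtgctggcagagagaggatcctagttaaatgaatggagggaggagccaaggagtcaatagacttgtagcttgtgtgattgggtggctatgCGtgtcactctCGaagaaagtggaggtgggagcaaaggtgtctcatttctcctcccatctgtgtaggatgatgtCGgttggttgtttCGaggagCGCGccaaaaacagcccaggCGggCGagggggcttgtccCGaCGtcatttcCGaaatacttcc
The shown stretches of Cox7a1 and Cox7a2 hold 3 and 12 CG. In the full 250 bases before the RefSeq start, Cox8b has 1 CG and Cox7a1 has 4, against 11 for Cox8a and 14 for Cox7a2. Cox6a1 has 26, Cox6b1 has 14 and Cox7a2l has 13. Over the 20150 promoters of protein-coding genes the median is 10, and 6.33% have fewer than Cox8b and 27.5% fewer than Cox7a1. So both heart-type genes with an entry lie below the median, and the ubiquitous Cox6a1, Cox6b1 and Cox7a2 and the related Cox7a2l above it. The ubiquitous Cox8a, at 11, is close to the median, with 50.9% of promoters holding fewer. This is a description of 7 sequences.

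Other short motifs were counted on both strands in the same 250 bases, with overlapping matches counted. TATAAA was in none of the 7 and in 11.2% of all promoters. CANNTG, the E-box that muscle regulators can bind, was in 6 of the 7, all but Cox6a1, and in 62.5% of all. CCGGAA, a core that ETS factors such as those of respiratory genes can bind, was in Cox6a1, Cox6b1 and Cox7a2 and in 15.4% of all. GCGCANGCG, a form of the NRF1 motif, occurred 3 times in Cox6a1, was found in none of the other 6 members, and is in 7.35% of all. CCAAT was in Cox6a1, Cox6b1, Cox7a1 and Cox8a and in 35% of all, and GGGCGG, the GC box, in Cox6a1, Cox7a2 and Cox7a2l and in 44.1% of all. Neither Cox7a1 nor Cox8b held the ETS core, the GC box or this NRF1 form, and the ubiquitous Cox8a held none of these either. These matches describe letters and say nothing of binding in these hearts.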

How the data were processed

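Total RNA of 2 hearts was sequenced after ribosomal RNA reduction with strand-specific libraries, per the labels' protocols. Expected counts, TPM and FPKM per gene and transcript were deposited by the authors, aligned to mm10 with GENCODE M21 per the sample notes, and the percent of a gene's TPM in each transcript was deposited by the authors beside them. For a second quantification, the authors deposited estimated counts and TPM for each transcript. Column layouts match RSEM and kallisto, but no tool or version is named in the sources used here. The hearts carry alleles of both parent strains, and both quantifications used a single reference.

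Values of the second were summed per gene. Shares are of the summed level of a pair in each heart, with mean and SD over 2 hearts. TMM factors (edgeR 4.0.16, R 4.3.3) left out spike-ins and the numbered tRNA entries and were computed on expected counts rounded to whole numbers. The log2 ratio used a prior count of 1 and exact Clopper-Pearson 95% intervals on both counts, which cover counting error only since reads are not independent molecules. Genes reaching a mean of 50 expected counts were called at 2-fold, a rule of size and not a test. The ratio was tested on simulated data. Stretches of 31 bases were compared between all GENCODE M21 transcripts, and coding identity came from global alignments.

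The members and lists were chosen with earlier results of these data known. Named were all 10 members, the listed subunits and cytochrome c, the 3 highest and 3 lowest assembly factors by mean TPM, and from each marker list the highest by TPM and the one with the largest ratio, with Ucp1. Likeness to other genes' patterns was not computed with 2 samples. Alternatives were DESeq2 1.42.0 size factors, library totals, spike-in totals, other filters and units.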

Additional observations from a re-analysis of the deposited data

How the results depend on the processing

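No p-values are given with 2 hearts, so stability is described by values, and all shares were set against their SD. By expected counts the shares of Cox6a2, Cox7a1 and Cox8b were 90.9%, 62.7% and 78.1%. By TPM of the second quantification they were 84.8%, 64.8% and 87.1%. Estimated counts of the second quantification, chosen after seeing the data, gave 87.3%, 46.9% and 73.0%, so that Cox7a1 fell below its partner. By TPM of the first quantification, the share of Cox7a1 was 79.9% with coding transcripts only. It was 69.1% with Cox7a2l counted beside Cox7a2, also chosen after seeing the data. FPKM moved no share beyond its SD, and no alternative moved that of Cox4i2 beyond its SD, where values ran from 0.278% to 0.342%. Leaving out each heart gave 87.9% to 90.2% for Cox6a2, 73.6% to 75.0% for Cox7a1 and 85.4% to 86.7% for Cox8b. The 161 genes with a 2-fold ratio became 561 when a mean of 10 expected counts sufficed, 83 when 200 were required, 4118 with no filter beyond a mean above 0 and 535 at 1.5-fold. It was 137 to 155 with other scalings, with the second quantification, and with nuclear protein-coding genes only, the last added after seeing the data. Of 50 alternative log2 ratios of members, 39 stayed in the counting interval and 4 changed sign, for Cox7a2 and Cox8b, whose ratios are near 0. Spike-in totals moved every ratio up by 0.07 (log2). Of the members' TPM, all 10 moved beyond their SD in the second quantification. The TPM of Cox7a2l and Gm6969 summed to a mean of 200.4, chosen after seeing the data. The part of Gm6969, 87.67 and 90.09 TPM from 717 and 740 expected counts, is divided by its own shorter length. The sum is therefore higher than the level those counts would give Cox7a2l. No paired analysis was possible because the hearts form 1 group. Counts near 100, as for Cox4i2, limit what can be seen between hearts.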
